A study of Rattus norvegicus with 12 samples.

Results

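The genes described here encode hormones of the enteroendocrine cells of the gut, the granins that are stored beside them, and neuropeptide Y with its receptor. They were chosen by name: every probe that is not a control and whose gene name in the array files is Pyy, Gcg, Chga, Chgb, Sst, Insl5, Cck, Nts, Npy or Npy1r was taken. These names had 11 of the 30367 probes of the array, for 9 of the 10 genes. Insl5 has no probe under that name and was not analysed here. Pyy and Npy have 2 probes each and the other 7 genes 1 probe each.

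Enteroendocrine cells are hormone-secreting cells scattered through the epithelium of the gut. In the colon, the L cells among them make peptide YY and, from the Gcg gene, the glucagon-like peptides, and they respond to nutrients and to products of bacteria. Neuropeptide Y belongs to the same peptide family as peptide YY but is made by nerve cells of the gut wall and by sympathetic nerve fibres, and the receptor NPY1R binds both peptides.

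Colonic tissue came from male Wistar rats killed at postnatal day 60, with 1 array per rat. In Group C, 4 rats (C1 to C4) were handled normally and given placebo. The 4 rats of Group M (M5 to M8) underwent neonatal maternal separation (NMS) for 180 min per day from day 2 to day 14 and were given placebo, and the 4 rats of Group D (D9 to D12) underwent the same NMS and were given the probiotic mixture VSL#3. For its dose, the labels and the study's methods give different values. Gavage ran from day 3 to day 60, and the rats of all 3 groups underwent colorectal distension (CRD). The study used 11 of the 12 arrays, without rat D12 and with no reason given, and the comparisons below are of these 11 arrays unless 12 are named. All rats of Groups C and M were on 1 slide and all rats of Group D on another, so that for Group D the slide and the group cannot be told apart. Nothing in the sources says whether the rats of a group came from separate litters, so p values measure the spread between these rats.

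On each array the 75th percentile of the signal lay between 1434 and 1953, and between 75.5% and 77.5% of the spots were well above background. A level is the log2 of the signal over the 75th percentile of its array, so that 0 is the 75th percentile and 1 unit is a 2-fold change. Levels are compared between rats for one probe, never between probes. The markers of colonic epithelium (16 of 16 genes), smooth muscle (9 of 9) and most of those of enteric neurons (15 of 19) were well above background on all 12 arrays.

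For 4 of the probes the sequence shows which part of the hormone precursor was measured, since it falls in the coding part. Precursors of this kind are cut by convertases behind pairs of basic residues, and capitals mark each lysine codon that is followed directly by an arginine codon in the reading frame of the precursor. The other probes lie near the 3′ ends of their transcripts.
Gcg, chromosome 3: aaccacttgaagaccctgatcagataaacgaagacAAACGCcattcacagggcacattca
Nts, chromosome 7: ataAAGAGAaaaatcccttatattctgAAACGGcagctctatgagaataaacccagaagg
Pyy, chromosome 10: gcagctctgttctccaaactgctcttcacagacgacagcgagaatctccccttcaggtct
Npy, chromosome 4: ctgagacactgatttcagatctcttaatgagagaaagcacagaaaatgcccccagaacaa
The Gcg probe, at chr3:44436079-44436138 of the rn4 build on the minus strand, holds 1 such pair, directly before the start of glucagon. The Nts probe, at chr7:40474898-40474957 on the minus strand, holds 2 pairs, with neuromedin N between them and the start of neurotensin behind the second. The probes of Pyy (chr10:91174648-91174707, minus strand) and Npy (chr4:78043176-78043235, plus strand) hold none and lie in the peptide that follows the hormone in its precursor. Because glucagon and the glucagon-like peptides come from 1 transcript, the Gcg probe does not tell them apart.

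Of the 11 probes, 10 (8 genes) were well above background on all 12 arrays. The Nts probe was so on the array of M7 alone. No spot of a member was saturated.

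By limma, with p adjusted over all probes and a threshold of 0.05, 0 of the 9 genes differed between Group M and Group C, where 0.204% of all probes did. A nominal p, that is one without adjustment, reached 0.05 or less in 4 of 9 (44.4%), beside 22.7% of all probes: Npy and Cck had a higher mean in Group M and Npy1r a lower one, and the fourth was Nts, which lay near background and had no measured difference. The criterion in the study's methods combines analysis of variance, Tukey's test (nominal p of 0.05 or less in each) and a change of 2-fold or more, and by it 0 of 9 differed, beside 2.31% of all probes. Between Group D and Group M 0 of 9 passed the adjusted test (0.171% of all probes), 4 of 9 the nominal one (21.6%) and 1 of 9, Npy1r, the criterion of the methods (2.66%). Here the means of Npy1r and Sst were higher and that of Npy lower in Group D, and the fourth was again Nts. Between Group D and Group C 0 of 9 passed the adjusted test (0.00659%), 1 of 9, Sst, the nominal one (5.97%) and 0 of 9 the criterion of the methods (0.369%), and 0 of 9 separated all rats of the 2 groups (7.57%). Over the 8 genes without Nts, the median difference was 0.07, 0.14 and 0.09 on the log2 scale in the 3 comparisons, beside -0.01, 0.01 and -0.01 over all probes. The median size of the difference, without its sign, was 0.29, 0.47 and 0.09 over these 8 genes, beside 0.21, 0.22 and 0.13 over all probes. The comparisons share groups, so that a high or low Group M enters both comparisons that involve it.

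**Figure D1:**
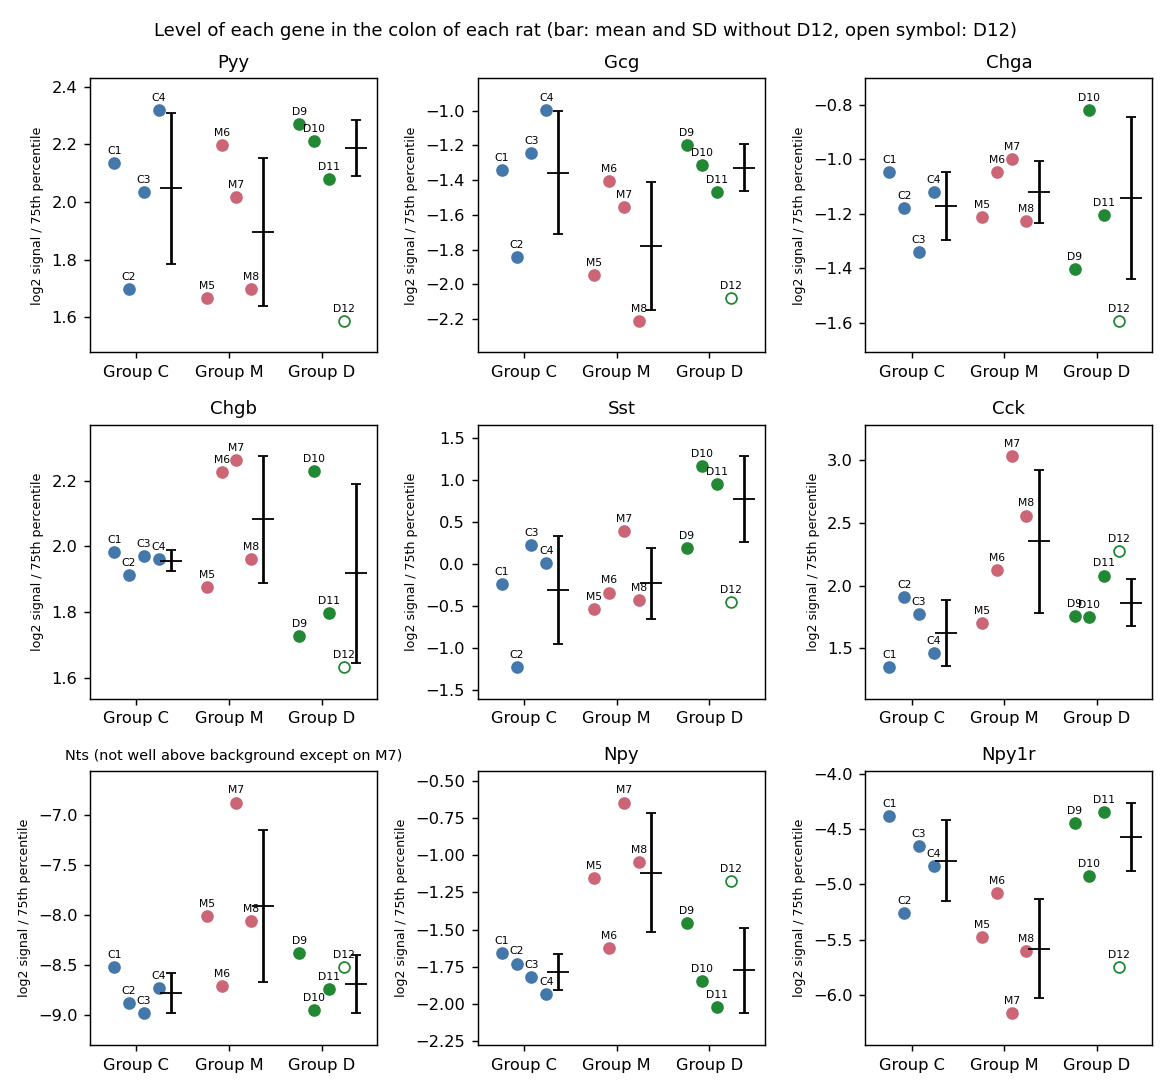
Level of each of the 9 genes (log2 of the signal over the 75th percentile of the array, main probe) in each rat, with the group mean and SD of the 11 arrays as bars and rat D12 as an open symbol. All 4 rats of Group M lie above all 4 of Group C for Npy, and the 3 rats D9 to D11 lie above all 4 rats of Group M for Npy1r; in the other genes Group M overlaps with both.

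Neuropeptide Y, a peptide co-transmitter of sympathetic and enteric neurons, was the 1 member whose main probe separated Groups M and C. At its main probe, at chr4:78045125-78045184 with 10 spots per array, the levels were -1.65, -1.73, -1.82 and -1.93 in C1 to C4 and -1.15, -1.62, -0.64 and -1.05 in M5 to M8. All 4 rats of Group M lay above all 4 of Group C, with M6 just above C1. The mean was 0.67 higher in Group M (adjusted p = 0.115 by limma, standard error 0.20), a 1.59-fold difference. Of all probes, 9.23% separated Groups M and C in this way. The second Npy probe, whose sequence is given above, ran from -3.90 to -3.77 in Group C and from -3.61 to -2.82 in Group M, again with no overlap, a difference of 0.64 (adjusted p = 0.0997). Both probes thus gave the same order of the groups.

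In Group D the main Npy probe had levels of -1.46, -1.85 and -2.02 in D9 to D11 and of -1.17 in D12. D9 lay above M6, so the groups overlapped, and D12 lay among the rats of Group M. The difference between Group D and Group M was -0.66 (adjusted p = 0.134 by limma, standard error 0.21) without D12 and -0.51 (adjusted p = 0.392) with it. At the second probe D9 to D11 had -3.79, -3.94 and -4.20, all below Group M, where the difference was -0.76 (adjusted p = 0.0831). Of all probes, 15.8% separated D9 to D11 from Group M in one direction or the other. Against Group C the difference was 0.01 at the main probe, with a 95% confidence interval from -0.46 to 0.48.

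NPY1R is a receptor coupled to inhibitory G proteins that binds neuropeptide Y and peptide YY. Its probe, at chr16:24747554-24747613, moved opposite to Npy. The levels were -4.38, -5.26, -4.66 and -4.84 in C1 to C4 and -5.48, -5.08, -6.16 and -5.60 in M5 to M8. M6 lay above C2, and the other 3 rats of Group M lay below all of Group C. Group M was 0.80 lower on the log2 scale, a difference of -0.80 (adjusted p = 0.125 by limma, standard error 0.25) 1.74-fold on the linear scale. In D9 to D11 the levels were -4.45, -4.93 and -4.34, all above Group M, and in D12 the level was -5.75. Group D was 1.01 higher than Group M (adjusted p = 0.102, standard error 0.27), a 2.01-fold difference, and 0.71 higher with D12 (adjusted p = 0.409), where the groups overlapped. Against Group C the difference was 0.21, with an interval from -0.39 to 0.82, and -0.08 with D12.

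**Figure D2:**
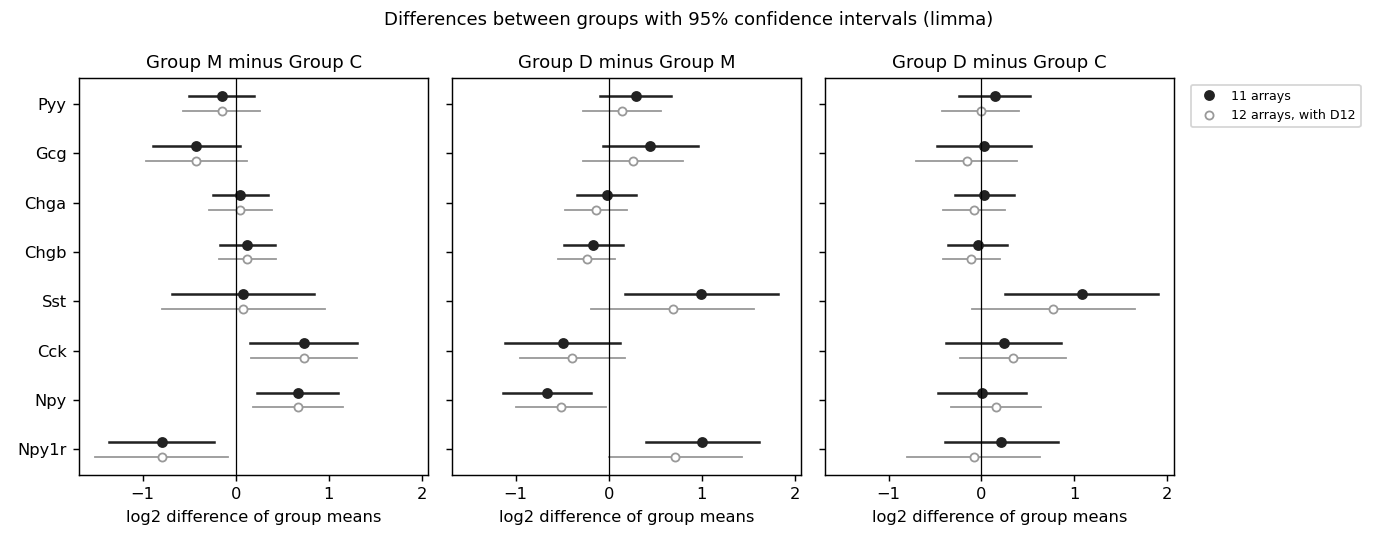
Log2 difference of the group means for the 8 genes other than Nts in the 3 comparisons, with 95% confidence intervals from limma (filled symbols, 11 arrays; open symbols, 12 arrays with D12). For Npy, Cck and Npy1r the intervals of Group M minus Group C leave out 0, and for Group D minus Group C only the interval of Sst on 11 arrays does.

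Rat M6 decided whether Npy and Npy1r passed the adjusted test. Without M6, 3 of 9 genes passed the adjusted test between Group M and Group C, beside 16.2% of all probes, and the same 3 of 9 did between Group D and Group M, beside 14.9%. Between Groups D and C it was 0 of 9, beside 0.00989%. Npy then differed by 0.84 between Groups M and C (adjusted p = 0.0159) and by -0.83 between Groups D and M (adjusted p = 0.0203). For Npy1r these differences were -0.96 (adjusted p = 0.0315) and 1.18 (adjusted p = 0.0225), and the third gene was Nts, near background. With each of the other 10 rats left out in turn, 0 of 9 genes passed in any comparison. Weights for the quality of each array also changed the calls: 5 of 9 genes, Nts among them, passed between Groups M and C, where 28.3% of all probes did, and 5 of 9 between Groups D and M, where 22.7% did.

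**Figure D3:**
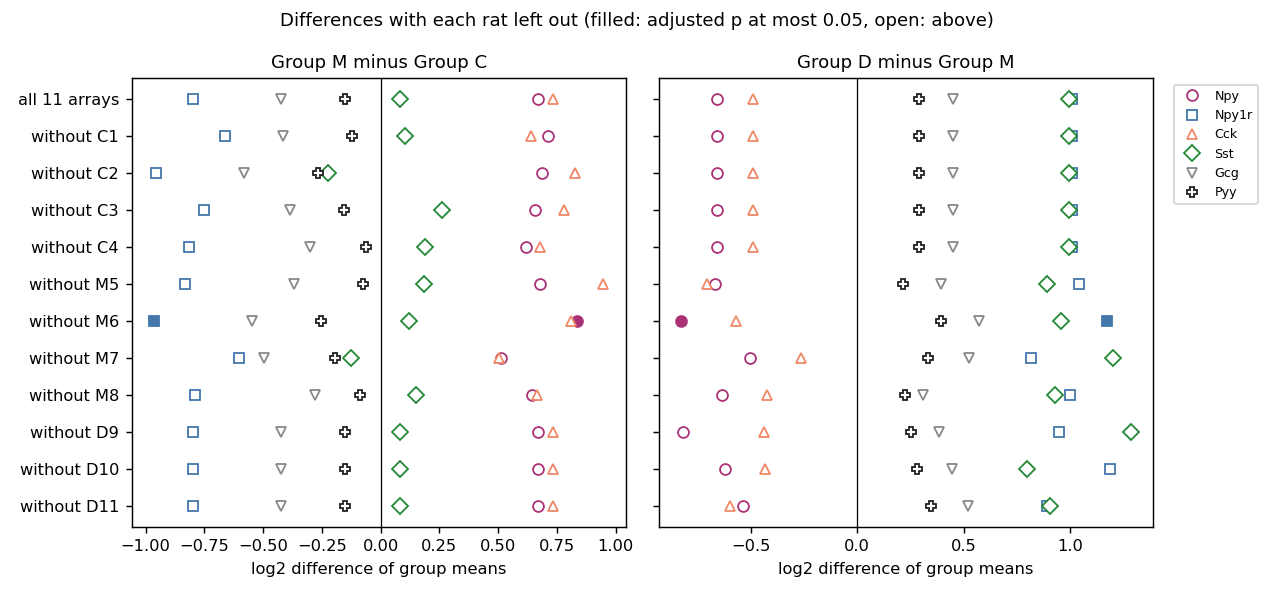
Log2 difference of the group means for 6 genes with all 11 arrays and with each rat left out in turn, for Group M minus Group C and Group D minus Group M; filled symbols passed limma's adjusted test at 0.05. Filled symbols appear without M6 alone, for Npy and Npy1r.

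Pyy, the gene of peptide YY, which slows transit and secretion, had levels that overlapped between all 3 groups. The levels of its main probe (chr10:91174366-91174425) were 2.14, 1.70, 2.03 and 2.32 in C1 to C4, 1.67, 2.20, 2.02 and 1.70 in M5 to M8 and 2.27, 2.21 and 2.08 in D9 to D11, with 1.59 in D12. C2, M5, M8 and D12 were low and the other 8 rats high, so that low rats occurred in each group. The difference was -0.15 between Groups M and C (interval from -0.51 to 0.20, adjusted p = 0.613 by limma). Between Groups D and M it was 0.29 (interval from -0.09 to 0.68, adjusted p = 0.355). The second probe of Pyy differed by -0.18 and 0.28 in the same comparisons. With D12, the differences between Groups D and M were 0.14 at the main probe (adjusted p = 0.796) and 0.11 at the second.

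Gcg, the gene of proglucagon, followed Pyy from rat to rat. Its levels were -1.34, -1.84, -1.25 and -0.996 in C1 to C4, -1.94, -1.41, -1.56 and -2.21 in M5 to M8, and -1.20, -1.31 and -1.47 in D9 to D11, with -2.08 in D12. The same 4 rats were lowest. Group M differed from Group C by -0.42 (adjusted p = 0.267 by limma, standard error 0.21) and Group D from Group M by 0.45 (adjusted p = 0.282, standard error 0.23), and the groups overlapped in both. With D12, the latter difference was 0.26. Between Groups D and C it was 0.03, with an interval from -0.48 to 0.54. In these tissue samples fewer L cells and less RNA per cell cannot be told apart.

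Chromogranin A and chromogranin B, acidic proteins of secretory granules that mark neuroendocrine cells in general, differed little. Chga, at chr6:126832496-126832555, had a level of -1.17 ± 0.12 in Group C (SD, n = 4), -1.12 ± 0.11 in Group M (SD, n = 4) and -1.14 ± 0.30 in D9 to D11 (SD, n = 3). Chgb, at chr3:120584813-120584872, ranged from 1.91 to 1.98 in Group C, from 1.88 to 2.26 in Group M and from 1.73 to 2.23 in D9 to D11. D12 was the lowest rat of all 12 for both, with -1.59 and 1.63. Between Groups M and C, Chga differed by 0.05 with an interval from -0.24 to 0.34 and Chgb by 0.13 with an interval from -0.17 to 0.42. Between Groups D and M, the differences were -0.02 (interval from -0.34 to 0.30) and -0.16 (interval from -0.48 to 0.15). A 2-fold difference of the group means lies outside all 4 of these intervals.

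Somatostatin is made by D cells and by some enteric neurons and inhibits other hormone-secreting cells; its gene was the 1 member with a nominal p of 0.05 or less between Groups D and C. Sst was measured at chr11:79126157-79126216. Its levels were -0.24, -1.23, 0.22 and 0.01 in C1 to C4 and -0.53, -0.34, 0.39 and -0.43 in M5 to M8. D9, D10 and D11 had 0.19, 1.16 and 0.95, and D12 had -0.46. D10 and D11 were the highest of the 12 rats, D9 lay below C3 and M7, and D12 lay among Group M. Group D was 1.08 above Group C (adjusted p = 0.741 by limma, standard error 0.37) and 0.996 above Group M (adjusted p = 0.164, standard error 0.37). With D12 these values were 0.77 (adjusted p = 0.775) and 0.69 (adjusted p = 0.513). Groups M and C differed by 0.08.

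Cholecystokinin is a hormone of I cells of the small intestine and also a peptide of enteric neurons. Cck, at chr8:126492642-126492700, had levels of 1.35, 1.91, 1.78 and 1.46 in C1 to C4 and of 1.71, 2.13, 3.03 and 2.56 in M5 to M8. M6, M7 and M8 lay above all of Group C, and M5 lay below C2 and C3. Group M was 0.73 above Group C (adjusted p = 0.146 by limma, standard error 0.26), a 1.66-fold difference, which became 0.51 without M7. D9 to D11 had 1.76, 1.75 and 2.08 and D12 had 2.28, and the difference between Groups D and M was -0.49 (adjusted p = 0.336).

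Neurotensin, a peptide of N cells of the ileum and of neurons, was near background. Nts had levels from -8.99 to -8.52 in Group C, from -8.71 to -6.87 in Group M and from -8.96 to -8.38 in D9 to D11, where the lowest signals well above background on these arrays lay between -6.86 and -6.52. M7 was the highest rat, and on its array 1 of the 2 spots was well above background. Its 2 spots differed by a median coefficient of variation of 15.5%, beside 2.20% to 12.0% in the other probes. The nominal p of 0.05 or less of Nts in 2 comparisons, and its calls without M6, therefore rest on signals that are not measured levels in 11 of 12 rats, and no fold is given.

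Over the 12 arrays, some pairs of members varied together. Pyy and Gcg had r = 0.942 (Spearman's rho = 0.902), and r = 0.949 between their deviations from the group means on 11 arrays. Chga and Chgb had r = 0.864 (rho = 0.804), with 0.852 between deviations. The L-cell hormones followed the granins less closely, with r = 0.465 between Pyy and Chga and 0.279 between Gcg and Chgb. Npy and Npy1r ran in opposite directions, with r = -0.827 (rho = -0.741), and with -0.541 between deviations. Cck had r = 0.719 with Npy and -0.746 with Npy1r, which became 0.230 and -0.454 without the 2 rats farthest from the median of Cck. Members of different pairs were also correlated: Gcg and Npy1r had r = 0.666, Pyy and Npy1r 0.625, Pyy and Sst 0.606, and Gcg and Npy -0.592. Between deviations these values were 0.262, 0.316, 0.509 and -0.153. These correlations are descriptions over 12 rats that share 2 slides and the scaling of their arrays.

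**Figure D4:**
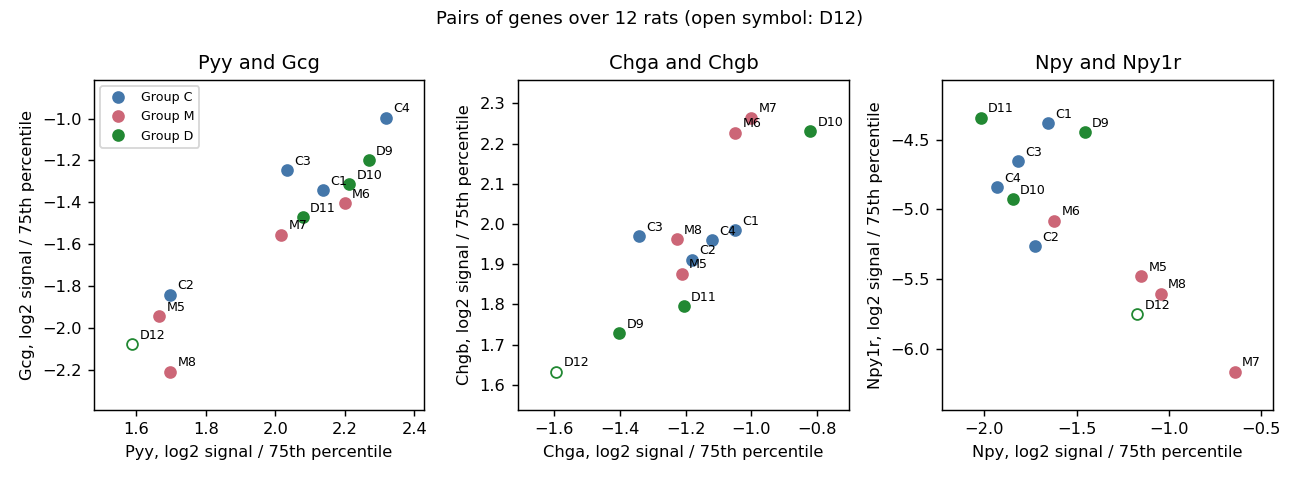
Levels of 3 pairs of genes in each of the 12 rats (log2 of the signal over the 75th percentile of the array; open symbol, D12). Pyy and Gcg rise together with C2, M5, M8 and D12 at the low end, Chga and Chgb rise together, and Npy1r falls as Npy rises with M5, M7, M8 and D12 apart from the other 8 rats.

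Among 14627 probes of other named genes, each well above background on all 12 arrays, the genes most like Pyy in their levels were Mllt4 (r = 0.955), Neurod1 (r = 0.946) and Mon1a (r = 0.941). Neurod1 encodes a transcription factor of enteroendocrine cells. Those most like Gcg were Rnf113a2 (r = 0.954), Gramd3 (r = 0.947) and Cgn (r = 0.940), which encodes cingulin of the tight junction. Xiap was the gene most like both Chga (r = 0.923) and Chgb (r = 0.911), followed by Wipf2 (r = 0.890) and Mall (r = 0.865) for Chga and by F8a1 (r = 0.900) and Lrrfip2 (r = 0.886) for Chgb. For Sst they were RGD1305298 (r = 0.898), Tlx2 (r = 0.884), a transcription factor of enteric neurons, and Synpo (r = 0.835), and for Cck they were Kif5b, Sec22b and Aimp1 (r = 0.935 to 0.948). Npy was most like Eif2s2 (r = 0.978), Wdr3 and Tuba1c, and Npy1r most like Nrbp2 (r = 0.972), Pdzrn3 and RGD1562582. Without the 2 rats farthest from the median of the member, these r values lay between 0.717 and 0.953 for the genes named here. The genes were picked for the highest of 14627 r values over only 12 rats, so high values can arise without a link to the member. How high such values would be was not determined.

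The levels of other cell types differed between the rats. The summed level of 6 lymphoid markers (Ms4a1, Cd79b, Cd3e, Cd3d, Cd2 and Ptprc), on the linear scale relative to the 75th percentile, was 7.72 in C2, 9.32 in M5, 5.97 in M7, 6.71 in M8 and 15.9 in D12, and it lay between 0.815 and 1.57 in the other 7 rats. The 4 rats with the lowest Pyy and Gcg, C2, M5, M8 and D12, were 4 of these 5 rats, and the fifth, M7, had Gcg below all of D9 to D11. Npy1r was lowest in the same 5 rats. For Npy, M5, M7, M8 and D12 were the 4 highest rats, whereas C2 lay in the middle of Group C. Whether lymphoid tissue in the sample had a part in these differences was not tested. Of the 6 lymphoid genes, 0 had a nominal p of 0.05 or less between Groups M and C, beside 22.7% of all probes. Between Groups D and M 4 did (66.7%, beside 21.6% of all probes), all lower in D9 to D11. This held only without D12: on all 12 arrays the nominal p of these 4 genes by limma lay between 0.216 and 0.339. M6, the rat without which Npy and Npy1r passed the adjusted test, had a summed lymphoid level of 0.984.

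The 5 markers of enteric glia summed to between 0.495 and 0.683 in Group C, to 1.097, 0.576, 1.07 and 1.37 in M5 to M8, to between 0.498 and 0.591 in D9 to D11 and to 1.02 in D12. They were thus high in the 4 rats with high Npy. The 19 markers of enteric neurons lay between 6.20 and 7.41 in Group C, between 6.28 and 8.98 in Group M and between 7.47 and 7.74 in D9 to D11, and 3 markers of sympathetic nerve fibres between 0.767 and 0.901, between 0.922 and 1.004, and between 0.835 and 1.05. In the sympathetic sum, all rats of Group M thus lay above all of Group C. Between these groups Th, Dbh and Slc6a2 differed by 0.23, 0.79 and -0.21. Npy was not set against the sympathetic markers. Relative to the mean log2 level of the markers of enteric neurons, Npy was 0.72 higher in Group M than in Group C. It was 0.89 lower in Group D than in Group M, a difference of -0.89. This comparison was chosen after the data were seen, and neither difference had overlap on the 11 arrays. In D12 this relative level of Npy was 2.44, close to the mean of 2.52 ± 0.33 in Group M (SD, n = 4) and not to that of 1.63 in D9 to D11. Epithelial markers summed to between 374 and 474 in Group C, between 369 and 511 in Group M, between 433 and 522 in D9 to D11, and to 345 in D12. Relative to the mean log2 level of these markers, Gcg differed by -0.22 and Pyy by 0.05 between Groups M and C, and Npy1r by -0.59 with no overlap. Npy differed on this scale by 0.87 between Groups M and C, with overlap, and by -1.14 between Groups D and M with no overlap on the 11 arrays. The granins were also lower in D9 to D11 than in Group M on this scale with no overlap, Chga by a difference of -0.50 and Chgb by one of -0.65. Without this scaling they differed by -0.02 and -0.16, so most of each relative difference lay in the epithelial markers. Of these 16 markers, 5 were higher and 0 lower in Group D than in Group M at a nominal limma p of 0.05 or less. This was 31.2% of the list, beside 21.6% of all probes, and the median difference was 0.24, beside 0.01. The 5 were Aqp8, Car1, Car4, Slc26a3 and Cldn3, with differences of 2.09, 1.77, 1.41, 1.01 and 0.51. Epcam, Krt8, Krt18 and Krt19 differed by -0.26, -0.09, -0.60 and -0.11, so the markers were not all higher. With D12, only Car1 and Car4 of these 5 still met that nominal threshold. The share of all probes with no overlap relative to the epithelial markers was not determined. In D12 the relative levels of Chga and Chgb were -4.96 and -1.74, beside means of -4.83 and -1.63 in Group M and of -5.33 and -2.27 in D9 to D11. None of these relative differences was tested.

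**Figure D5:**
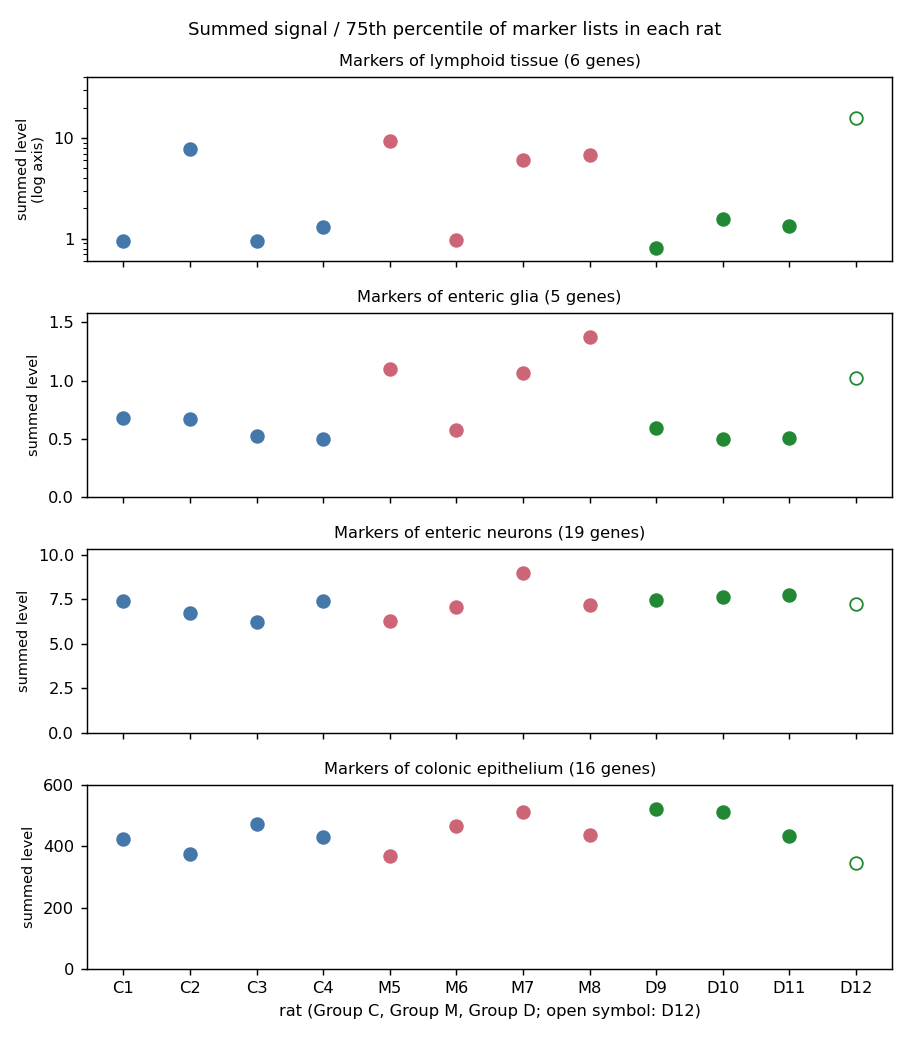
Summed level of the markers of 4 tissues in each rat (signal over the 75th percentile of the array; log axis for lymphoid tissue, linear axes from 0 for the others; open symbol, D12). Lymphoid markers are high in C2, M5, M7, M8 and D12 and glial markers in M5, M7, M8 and D12, while neuronal and epithelial markers vary less.

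Around the members stand the other hormones of the gut epithelium, with 12 genes on the array, of which 9 were well above background on all arrays and 2 on none. At a nominal p of 0.05 or less, 4 were higher and 2 lower in Group M than in Group C, and 0 passed the adjusted test. These are 6 of 12, beside 22.7% of all probes, and the median difference of the list was 0.27, beside -0.01 over all probes. Tph1, the enzyme that commits tryptophan to serotonin in enterochromaffin cells, was 1.06 higher with no overlap (adjusted p = 0.0808 by limma), and Ppy, the gene of pancreatic polypeptide, had a difference of -0.67 with no overlap (adjusted p = 0.0975). Gast, the gene of gastrin, was 0.88 higher (adjusted p = 0.144). Iapp, the gene of amylin, differed by -0.81 (adjusted p = 0.114) and was well above background on 7 of 12 arrays. Between Groups D and M, 2 were higher and 3 lower, 41.7% of the list beside 21.6% of all probes, with a median difference of -0.10 beside 0.01. Nmu, the gene of neuromedin U, differed by -1.43 (adjusted p = 0.1304), Guca2b, the gene of uroguanylin, by -1.28, Tph1 by -0.70 and Iapp by 0.97. Between Groups D and C 0 of 12 reached that p.

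Of 16 genes for granins and the processing of prohormones, 3 were higher and 2 lower in Group M at the nominal p, and 4 were higher and 1 lower in Group D than in Group M, 31.2% of the list each time beside 22.7% and 21.6% of all probes. The median differences were -0.06 and 0.17, and 0 genes passed the adjusted test. Vgf, a granin-like precursor of neuroendocrine cells and neurons, was 1.57 higher in Group M (adjusted p = 0.106 by limma) and differed by -1.84 between Groups D and M (adjusted p = 0.0918). Rph3al, an effector of granule exocytosis, differed by -0.73 (adjusted p = 0.133) and 0.91 (adjusted p = 0.111), and Cadps, a factor that primes dense-core granules, by -0.24 and 0.39.

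Of 16 receptors on the array for the peptides of these genes, 10 were well above background on all 12 arrays and 2 on none. At the nominal p, 3 were higher and 2 lower in Group M than in Group C, and 4 were higher and 0 lower in Group D than in Group M. These were 31.2% and 25.0% of the list, beside 22.7% and 21.6% of all probes. The median differences were -0.18 and -0.07, beside -0.01 and 0.01 over all probes, and 0 genes passed the adjusted test. Ntsr1, a receptor for neurotensin, differed by -0.82 with no overlap (adjusted p = 0.118 by limma) and Ntsr2 by 0.55 (adjusted p = 0.160). Glp2r, the receptor for glucagon-like peptide 2, was counted in both comparisons but was well above background on 2 of 12 arrays. Cckar, a receptor for cholecystokinin counted as higher in Group M than in Group C, was so on 1 of 12. Ppyr1, the receptor that prefers pancreatic polypeptide, is 1 further receptor of the family of Npy1r. It was named after its values were seen, and was 0.96 higher in Group M (adjusted p = 0.196), opposite to Npy1r. Sstr1, a receptor for somatostatin, was 0.91 higher in Group D than in Group M (adjusted p = 0.115) and 0.69 higher than in Group C (adjusted p = 0.786), in both with no overlap.

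Of 13 receptors by which enteroendocrine cells sense nutrients and metabolites, 0 were higher and 5 lower in Group M than in Group C at the nominal p, and 4 were higher and 0 lower in Group D than in Group M. These were 38.5% and 30.8% of the list, beside 22.7% and 21.6% of all probes. The median differences were -0.53 and 0.64, beside -0.01 and 0.01 over all probes. Each of these medians of the list is the value of the same 1 gene, which was well above background on 5 of 12 arrays. Its nominal p by limma was 0.314 and 0.266. Of the 13 genes, 4 were well above background on all 12 arrays and 5 on none. Trpa1, a cation channel opened by irritants, was the 1 gene of all these lists that passed the adjusted test, between Groups M and C, where 0.204% of all probes did. It was well above background on 10 of 12 arrays, but on only 2 of 4 of Group M, beside 4 of 4 of Group C and all 3 of D9 to D11. It differed by -1.26 between Groups M and C with no overlap (adjusted p = 0.0459 by limma), and by 1.18 between Groups D and M (adjusted p = 0.0659). Both differences thus rest in part on signals near background. With all 12 arrays its adjusted p between Groups M and C was 0.139. Ffar2, a receptor for short-chain fatty acids, differed by -1.14 between Groups M and C (adjusted p = 0.119) and by 0.91 between Groups D and M (adjusted p = 0.201), which became 0.54 with D12 (adjusted p = 0.630). Casr, the calcium-sensing receptor, differed by -1.36 (adjusted p = 0.147), and Cnr1, a cannabinoid receptor, by -0.92 with no overlap (adjusted p = 0.108) and by 0.96 (adjusted p = 0.108).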

How the data were processed

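RNA of the colon of 12 rats was labelled with Cy3 and hybridized to 1-colour rat arrays, 1 per rat. The deposited intensities were made by Agilent Feature Extraction 10.5.1.1, per the file headers: background-subtracted, detrended, linear and not normalized between arrays. The authors' table holds log2 values, quantile normalized, and was used as an alternative. Here, control spots and outlier spots were left out, the log2 of the 75th percentile of each array was subtracted, and spots of a probe were averaged. Probe sequences and rn4 positions are those of the files; gene names were matched to RefSeq symbols.

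The 3 groups were compared in one model by limma 3.58.1 (R 4.3.3; lmFit, eBayes, 11 arrays) with Benjamini-Hochberg adjustment over 30348 probes; 19 others lacked a value on an array. The main probe of a gene has the highest mean signal. A probe counts as well above background where at least 0.5 of its spots are. The number of arrays limits the precision. The fit was tested on simulated data.

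The members, gene lists, marker lists and tests were chosen with earlier results of these data known. Named genes are the members, up to 4 genes per list and comparison with the smallest nominal p of 0.05 or less, and for each member the 3 genes with the highest r over 12 arrays. Alternatives were all 12 arrays, normexp (offset 50), quantile and median scaling, the authors' table, outlier spots kept, a filter on dim probes, a replicate block, array weights, 2 groups in the model, the methods' criterion, a nominal p, each rat left out and, added after seeing the data, levels relative to marker lists. Figures were drawn with Python and matplotlib. One marker is not reported here and is in no sum.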

Additional observations from a re-analysis of the deposited data

How the results depend on the processing

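The count of members past limma's adjusted test was 0 of 9 in each comparison on 11 arrays, and it stayed at 0 with all 12 arrays, normexp, quantile or median scaling, the authors' table, outlier spots kept, a filter on dim probes (8 genes), the replicate block and 2 groups in the model. It was 5 in Group M vs Group C, 5 in Group D vs Group M and 0 in Group D vs Group C with array quality weights; the criterion of the methods gave 1 in Group D vs Group M, and a nominal p of 0.05 or less gave 4, 4 and 1. With each rat left out in turn it ranged from 0 to 3, from 0 to 3 and was 0, with the count of 3 without M6 alone. The replicate numbers do not pair the rats (deviations of same-numbered rats correlated between -0.559 and 0.384), and the replicate block left 1 probe of all past the adjusted test in each of the first 2 comparisons. No difference with a nominal p of 0.05 or less changed its sign under any alternative. Signs that changed belonged to differences near 0: with all 12 arrays, Pyy, Gcg, Chga and Npy1r differed by -0.00975, -0.16, -0.0824 and -0.0818 between Groups D and C; Chga by 0.00027 (quantile), 0.0635 (median) and 0.0655 (array weights) between Groups D and M; Chgb by 0.00602 (median) and Npy by -0.00537 (replicate block) and -0.0416 (array weights) between Groups D and C; and Chga by -0.0583 and Sst by -0.0955 (array weights) between Groups M and C. With 1 rat left out, the signs changed for Chga (-0.00507 to 0.0928) and Sst (-0.22 to 0.26) between Groups M and C, for Chga (-0.18 to 0.11) between Groups D and M, and for Gcg (-0.13 to 0.15), Chga (-0.13 to 0.16), Chgb (-0.19 to 0.0568) and Npy (-0.15 to 0.13) between Groups D and C. Depth has no counterpart here but the signal over background, which leaves Nts unmeasured in 11 of 12 rats: it is in the counts of 9, and no difference is given for it.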

Other observations

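Of 16 transcription factors of enteroendocrine cells on the array, 13 were well above background on all 12 arrays. At a nominal limma p of 0.05 or less, 0 were higher and 2 lower in Group M than in Group C, and 5 were higher and 1 lower in Group D than in Group M, with 0 past the adjusted test in either. These were 12.5% and 37.5% of the list, with median differences of -0.31 and 0.32, beside 22.7% and 21.6% of all probes with medians of -0.01 and 0.01. The 5 counted as higher in Group D include Rfx6, which was well above background on 0 of 12 arrays. Etv1 differed by -0.66 between Groups M and C with no overlap (adjusted p = 0.118) and by 0.69 between Groups D and M (adjusted p = 0.126), which became 0.40 with D12 (adjusted p = 0.592). Pax4, a factor of several enteroendocrine lineages, was 0.69 higher in Group D than in Group M with no overlap (adjusted p = 0.135). Isl1, a LIM homeodomain factor, had a lower mean in both NMS groups than in Group C: its difference was -0.41 in Group M (adjusted p = 0.167) and -0.69 in Group D (adjusted p = 0.532), each with no overlap, and its level in D12 was -5.59 against a mean of -3.94 in Group C.

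Of 8 peptidases that cut these hormones, 0 were higher and 5 lower in Group M than in Group C at the nominal p, and 3 were higher and 0 lower in Group D than in Group M. Ece2, of the family of endothelin-converting enzymes, had the smallest p of the list in both comparisons. Its probe was well above background on 2 of 4 arrays of Group C, on 0 of 4 of Group M and on all 3 of D9 to D11. Its mean was lower in Group M than in Group C (adjusted p = 0.111 by limma) with no overlap. No fold is given there, since neither group was well above background on all its arrays. In Group D it was at least 1.23-fold higher than in Group M (adjusted p = 0.0900), also with no overlap. This bound sets the mean of D9 to D11 against the lowest signals well above background on the arrays of Group M. Dpp4, which removes the first residues of peptide YY, neuropeptide Y and the glucagon-like peptides, differed by -0.90 between Groups M and C (adjusted p = 0.173 by limma) and by 0.91 between Groups D and M (adjusted p = 0.203). Mme, the gene of neprilysin, differed by -0.73 between Groups M and C (adjusted p = 0.158) and Enpep, the gene of aminopeptidase A, by -0.38 with no overlap (adjusted p = 0.160). The levels of the epithelial markers are given above, and their part in these differences was not tested. The counts are 62.5% and 37.5% of the list, beside 22.7% and 21.6% of all probes, and the median differences of the list were -0.35 and 0.35.

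No group of 4 rats held a member value that stood apart from the other 3 by Dixon's test, in 33 group tests of the 11 probes.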
